A study of Homo sapiens with 4 samples.

Results

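The genes described here are 52 genes of G2 and mitosis, among them cyclins, spindle kinases, checkpoint proteins, kinesins and condensin subunits. Members were taken by gene name from the deposited expression table, where all 52 were found among 60662 genes. All 52 had enough counts to be tested, as did 15246 genes in all. The cells were NB4, a line from human acute promyelocytic leukemia that carries the PML-RARα fusion. Both groups were transduced with a lentiviral vector, which was empty in the vector group and expressed JMJD3 in the JMJD3 group. JMJD3 (gene KDM6B) removes methyl groups from lysine 27 of histone H3. Each group had 2 RNA libraries, called vector 1, vector 2, JMJD3 1 and JMJD3 2, with 39078443, 40768225, 35176388 and 34704909 counts. By their names, vector 1 was run on lane 20 and the other 3 on lane 17. Whether the pair of libraries in a group stems from separate transductions is not stated, so the p-values measure only the spread between these samples, which may be technical. The labels name DMEM and Trizol, whereas the methods of the study name RPMI-1640 and a column kit.

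In dividing cells, CDK1 bound to cyclin A or cyclin B drives entry into mitosis, and polo-like and aurora kinases build the spindle. The spindle checkpoint holds the anaphase-promoting complex (APC/C) until every chromosome is attached, after which separase cuts cohesin and the cell divides. Transcripts of most of these genes peak in G2 and M phase under the B-MYB-MuvB and FOXM1 activators, and the DREAM complex represses them in resting cells, as happens when myeloid blasts stop dividing and differentiate.

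KDM6B was measured at 15.8 and 13.7 CPM (counts scaled to library size) in vector 1 and vector 2 and at 37.9 and 44.1 CPM in JMJD3 1 and JMJD3 2. The groups did not overlap, as the labels require, although a count per gene covers endogenous and vector transcripts alike. Its log2 fold change was 1.48 ± 0.13 (SE), with an edgeR quasi-likelihood adjusted p of 0.00114. Of 10 promyelocyte markers, 8 lay above 1 CPM in every library, and the most abundant was MPO, the granule peroxidase. ELANE and KIT were the 2 markers below 1 CPM. The other 8 are genes of a cell type, so the name NB4 was taken from the labels. The PML-RARα fusion was not looked for.

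At an adjusted p under 0.05, 21 of the 52 members were lower in JMJD3 cells (40.4%) and 2 were higher (3.85%), namely HMMR and TOP2A. Among all 15246 genes tested, 19.1% were lower and 21.6% higher. Per gene the changes were modest, with log2 fold changes (JMJD3 over vector) from -0.84 for MKI67 to 0.58 for HMMR. The median was -0.22 over the members and 0.04 over all tested genes, and 36 of 52 members had a negative value. In bulk RNA, fewer cells in G2 and M and less of these transcripts per cell cannot be told apart. A fall of at least 1.5-fold was found for 6 members, MKI67, CCNB2, BIRC5, PLK1, TACC3 and KIF23, against 7.90% of all tested genes. No member rose by 1.5-fold in the main fit, where 15.1% of all genes did, but HMMR lay just under that limit at 49.7% higher and passed it under 8 of 15 alternatives. TOP2A passed it under 2 and SMC4 under 1. At a limit of 2-fold in either direction 0 members were left in the main fit, beside 10.4% of all genes, while MKI67 passed that limit under 3 alternatives and CENPF under 2. Both JMJD3 libraries lay below both vector libraries for 31 members and above them for 7, which compares with 34.8% and 39.6% of all tested genes. The counts depended on the libraries, and so did those over all genes. Leaving out JMJD3 1 or JMJD3 2 left 8 and 10 members lower, where 9.29% and 7.43% of all tested genes were lower. Leaving out vector 1 gave 27 members lower and 7 higher, beside 27.4% and 28.5% of all genes. With no filter on low counts 12 members were lower and 1 was higher, beside 6.55% and 6.99% of all genes. With all libraries in the fit, upper quartile scaling ended the calls of CKS2, TPX2, BUB3 and NDC80, and limma on FPKM those of CKS2, BUB1B, BUB3, NDC80 and TOP2A. The replicate block ended 7 calls, of CKS2, TPX2, AURKB, BUB3, NDC80, KIF2C and NCAPH. The fit with no filter ended 10, of CKS2, GTSE1, AURKB, BUB1B, BUB3, CENPF, NDC80, KIF2C, TOP2A and NCAPH. Under 15 other settings all 23 called members kept their sign, and 8 of them, CCNB1, CCNB2, PLK1, TACC3, HMMR, BIRC5, KIF23 and MKI67, passed the test in each.

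**Figure D1:**
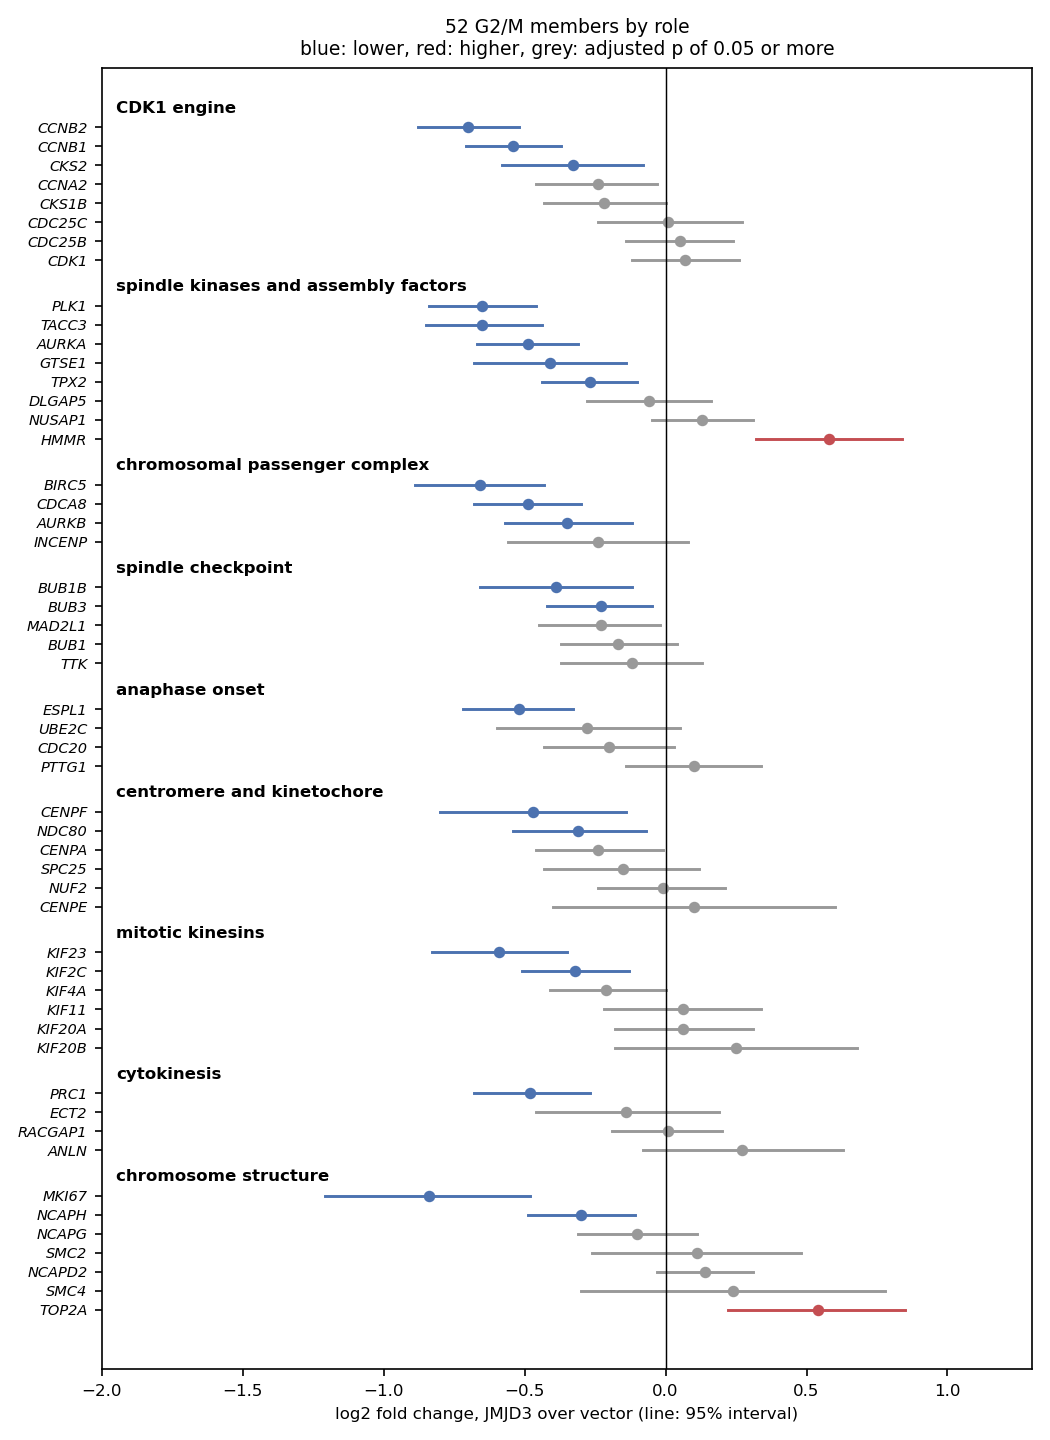
Log2 fold change of each of the 52 members, JMJD3 over vector, grouped by role; points are estimates and lines 95% intervals from 2 libraries a group. Blue points mark the 21 members that fell, red points HMMR and TOP2A, which rose, and grey points the 29 members that did not pass the test.

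Promoters of the members share sequence features that the choice of members did not use. RefSeq (GRCh38.p14) gave a window from 250 bases before to 50 bases after the gene start for 45 members. Each gene was given the first start listed for it, and whether NB4 cells use that start was not checked. The promoter table supplied for this work had no entry under the symbols AURKA, RACGAP1, BUB3, UBE2C, BIRC5, TTK and TPX2, and whether RefSeq lists them was not looked up. On either strand, 2 motifs were searched, namely TTTGAA (reverse complement TTCAAA), the core of the cell cycle genes homology region (CHR) that MuvB complexes bind, and CCAAT (reverse complement ATTGG), the box of NF-Y. The CHR letters were found in 73.3% of the members' promoters and in 15.4% of 27305 promoters of all genes. For CCAAT the shares were 73.3% and 35.7%, and for both motifs together 57.8% and 6.08%. Within 60 bases before the start, 46.7% of the members and 2.98% of all promoters held the CHR letters, a distance chosen after the positions were seen. By direction, the CHR letters were found in 12 of 17 members that fell (70.6%), in 19 of 26 that did not pass the test (73.1%) and in both that rose. The promoters of 3 members that fell, CCNB2 (chr15:59104896-59105195, plus strand), PLK1 (chr16:23678639-23678938, plus strand) and MKI67 (chr10:128126374-128126673, minus strand), are printed with those of the 2 that rose, HMMR (chr5:163460382-163460681, plus strand) and TOP2A (chr17:40417847-40418146, minus strand), so that both directions can be read side by side. Capitals mark the matches to either motif.
CCNB2: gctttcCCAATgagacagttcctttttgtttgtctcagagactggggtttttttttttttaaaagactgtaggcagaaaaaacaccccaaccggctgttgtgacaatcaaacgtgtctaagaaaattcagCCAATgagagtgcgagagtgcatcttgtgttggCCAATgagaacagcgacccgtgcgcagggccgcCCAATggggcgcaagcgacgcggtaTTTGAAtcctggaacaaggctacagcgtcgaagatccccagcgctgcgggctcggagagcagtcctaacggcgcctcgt
PLK1: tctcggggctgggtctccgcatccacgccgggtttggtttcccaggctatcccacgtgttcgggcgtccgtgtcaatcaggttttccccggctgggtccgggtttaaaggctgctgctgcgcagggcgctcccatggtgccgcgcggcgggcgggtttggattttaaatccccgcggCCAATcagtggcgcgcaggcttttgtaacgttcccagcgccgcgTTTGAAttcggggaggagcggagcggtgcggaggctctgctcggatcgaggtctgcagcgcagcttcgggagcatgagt
MKI67: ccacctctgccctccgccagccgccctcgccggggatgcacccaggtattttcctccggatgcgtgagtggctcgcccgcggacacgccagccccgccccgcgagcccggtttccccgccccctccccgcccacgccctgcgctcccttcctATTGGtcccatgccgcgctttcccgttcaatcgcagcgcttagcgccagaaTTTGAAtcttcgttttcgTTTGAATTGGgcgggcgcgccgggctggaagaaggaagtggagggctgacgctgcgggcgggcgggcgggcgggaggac
HMMR: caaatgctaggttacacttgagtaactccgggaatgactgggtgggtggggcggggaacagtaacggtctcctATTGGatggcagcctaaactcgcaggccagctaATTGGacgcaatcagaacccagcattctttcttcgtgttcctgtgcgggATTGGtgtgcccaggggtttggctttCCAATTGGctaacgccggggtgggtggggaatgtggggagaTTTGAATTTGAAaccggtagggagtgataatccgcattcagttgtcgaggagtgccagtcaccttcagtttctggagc
TOP2A: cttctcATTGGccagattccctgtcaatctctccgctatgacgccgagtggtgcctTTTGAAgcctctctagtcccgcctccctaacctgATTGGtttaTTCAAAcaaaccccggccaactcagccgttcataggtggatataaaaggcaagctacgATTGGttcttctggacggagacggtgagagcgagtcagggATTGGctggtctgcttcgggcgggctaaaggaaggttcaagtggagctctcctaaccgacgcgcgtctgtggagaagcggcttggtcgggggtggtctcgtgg
CCNB2, PLK1 and MKI67 each hold the CHR letters with their first base at -29 from the start. MKI67 holds them at -47 too, and HMMR at -28 and -22. In TOP2A the matches lie farther upstream, at -194 and -151, and 4 CCAAT matches are spread from -244 to -53. A CHR match and a CCAAT match share a base in MKI67, and in HMMR a CCAAT overlaps its own reverse complement. These are letter matches and not measured binding sites.

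Among the 8 genes of the CDK1 engine, 3 fell, 0 rose and the median log2 fold change was -0.23. CCNB2, a B-type cyclin that activates CDK1, was at 179 and 183 CPM in vector 1 and vector 2 and at 112 and 110 CPM in JMJD3 1 and JMJD3 2. The libraries of each group lay close together and the groups did not overlap. Its log2 fold change was -0.70 ± 0.08 (SE, edgeR quasi-likelihood adjusted p = 0.00185), a 38.6% lower level. CCNB1, the main mitotic cyclin, stood at 227 and 231 CPM against 156 and 159 CPM. Again the groups were apart, with a log2 fold change of -0.54 ± 0.07 (SE, edgeR quasi-likelihood adjusted p = 0.00298). CKS2, a small CDK-binding subunit, had the highest level per length of any member, with mean FPKM values of 435 in vector and 336 in JMJD3 cells. By counts it was at 137 and 162 CPM against 124 and 114 CPM, without overlap, and its log2 fold change of -0.33 was called at an adjusted p of 0.0452 by the edgeR quasi-likelihood test. It lost the call without vector 2 (-0.20), without JMJD3 1 (-0.38) and without JMJD3 2 (-0.27), with edgeR quasi-likelihood adjusted p-values of 0.0718, 0.138 and 0.33, and under 6 of the other 12 settings. CDK1 itself, named after its values were seen because its cyclins fell, was at 125 and 121 CPM in vector and 133 and 126 CPM in JMJD3 cells. Its 95% interval ran from -0.12 to 0.26 on the log2 scale (edgeR quasi-likelihood adjusted p = 0.518), so a fall of the size seen for CCNB1 lies outside it. CCNA2, the cyclin of S phase and G2, missed the threshold at a log2 fold change of -0.24 (edgeR quasi-likelihood adjusted p = 0.0724). It passed without vector 1 (-0.18, adjusted p = 0.042) and without vector 2 (-0.34, adjusted p = 0.0102) by the same test, and was named after its values were seen. It also passed with DESeq2 size factors, crossed replicate numbers and both corrections, at -0.28, -0.24, -0.25 and -0.29 (edgeR quasi-likelihood adjusted p = 0.0455, 0.0162, 0.0469 and 0.00669). Crossed numbers put vector 1 in a block with JMJD3 2 and vector 2 with JMJD3 1, a pairing that no label gives. Crossed numbers and both corrections, for transcript length without and with GC content, were added after the data were seen. CDC25B and CDC25C, phosphatases that activate CDK1, did not pass in the main fit.

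**Figure D2:**
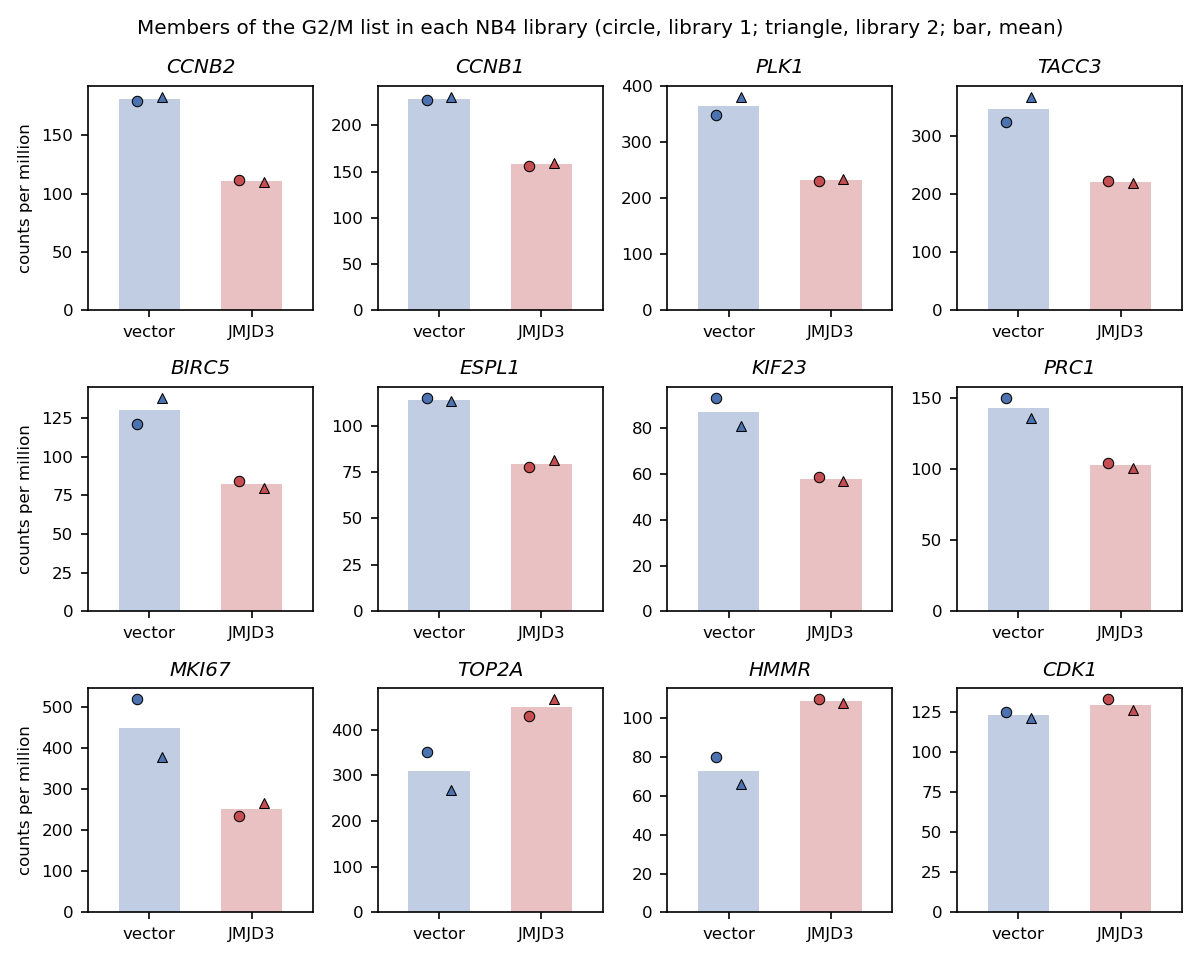
CPM of 12 members in each library, on axes that start at 0; circles are library 1, triangles library 2 and bars the mean of each group. For CCNB2, CCNB1, PLK1, TACC3, BIRC5, ESPL1, KIF23, PRC1 and MKI67 both JMJD3 libraries lie below both vector libraries, for TOP2A and HMMR above them, and for CDK1 the values differ little.

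The spindle kinases and assembly factors held members of both directions, with 5 of 8 lower, 1 higher and a median log2 fold change of -0.34. PLK1, the polo-like kinase of mitotic entry and spindle assembly, was at 348 and 381 CPM in the vector libraries and at 230 and 235 CPM in the JMJD3 libraries. TACC3, which crosslinks spindle microtubules and is loaded by aurora A, was at 323 and 367 CPM against 222 and 219 CPM. Neither gene showed overlap of the groups. Both had a log2 fold change of -0.65, with SEs of 0.08 and 0.09 and edgeR quasi-likelihood adjusted p-values of 0.00239 and 0.00298. AURKA, the aurora A kinase itself, was at 160 and 163 CPM against 114 and 115 CPM and fell by 0.49 on the log2 scale (edgeR quasi-likelihood adjusted p = 0.00435). TPX2, the protein that activates and targets aurora A, was at 293 and 285 CPM against 238 and 241 CPM, with a log2 fold change of -0.27 (edgeR quasi-likelihood adjusted p = 0.0246). AURKA and TPX2 were named after their values were seen, and their groups did not overlap. Without JMJD3 1 both missed the threshold, AURKA at -0.49 (edgeR quasi-likelihood adjusted p = 0.0511) and TPX2 at -0.26 (0.296), and without JMJD3 2 so did TPX2, at -0.28 (0.278).

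HMMR moved the other way. This gene encodes a spindle and hyaluronan-binding protein that works with TPX2 at the spindle poles. It was at 79.8 and 66.1 CPM in vector 1 and vector 2 and rose to 110 and 108 CPM in JMJD3 1 and JMJD3 2. Both JMJD3 libraries were above both vector libraries, and the level was 49.7% higher (log2 fold change 0.58 ± 0.11 SE, edgeR quasi-likelihood adjusted p = 0.00788). NUSAP1, which bundles spindle microtubules and had the highest level per length in this role group at a mean FPKM of 176 over all libraries, was at 225 and 212 CPM against 237 and 241 CPM. Its groups did not overlap, but the log2 fold change of 0.13 did not pass the edgeR quasi-likelihood test (adjusted p = 0.202).

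Of the 4 chromosomal passenger genes, 3 fell and the median log2 fold change was -0.42. This complex corrects wrong attachments of chromosomes to the spindle and guides cytokinesis. BIRC5 (survivin), which docks the complex on chromosomes, was at 121 and 138 CPM in the vector libraries and at 84.3 and 80 CPM in the JMJD3 libraries. Its values stood apart between groups, and the log2 fold change was -0.66 ± 0.10 (SE, edgeR quasi-likelihood adjusted p = 0.00364). CDCA8 (borealin), its scaffold partner, was at 113 CPM in both vector libraries and at 79.8 and 81 CPM in JMJD3 cells. That fall of 0.49 on the log2 scale passed the edgeR quasi-likelihood test at an adjusted p of 0.00501. AURKB, the kinase of the complex, had the highest FPKM of the 4 and was at 72.6 and 78 CPM against 61.5 and 56.8 CPM. These groups did not overlap either, and its log2 fold change of -0.35 was the smallest of the 3 called (edgeR quasi-likelihood adjusted p = 0.026). INCENP, the scaffold, was at 164 and 124 CPM against 118 and 127 CPM, so that its groups overlapped, and was named after its values were seen. Without JMJD3 1 or JMJD3 2, CDCA8 missed the threshold at -0.48 and -0.50 (edgeR quasi-likelihood adjusted p = 0.0656 and 0.0575), and so did AURKB at -0.41 and -0.29 (0.165 and 0.348). With no filter and with the replicate block AURKB missed it as well (edgeR quasi-likelihood adjusted p = 0.0636 and 0.0713). INCENP passed without vector 2, with crossed replicate numbers and with the correction for transcript length, at -0.42, -0.22 and -0.33 (edgeR quasi-likelihood adjusted p = 0.00998, 0.0322 and 0.0396). Without vector 1 it was at -0.06 (edgeR quasi-likelihood adjusted p = 0.477), so its value rests on that library.

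Of the 5 spindle checkpoint genes 2 fell, and the median log2 fold change was -0.23. All 5 had a negative value, between -0.39 and -0.12. BUB1B (BUBR1), which inhibits the APC/C, was at 176 and 142 CPM in the vector libraries and at 119 and 123 CPM in the JMJD3 libraries. The groups did not overlap, although the vector libraries differed more from each other than the JMJD3 libraries did, and the log2 fold change was -0.39 (edgeR quasi-likelihood adjusted p = 0.0332). BUB3, the adaptor that brings checkpoint proteins to kinetochores, was at 323 and 302 CPM against 270 and 262 CPM. Without overlap, its log2 fold change of -0.23 lay just inside the threshold (edgeR quasi-likelihood adjusted p = 0.0468), while MAD2L1, with the same log2 fold change of -0.23, lay outside it at 0.0798 by that test. MAD2L1 was named after its values were seen, and passed without vector 2 at -0.28 (edgeR quasi-likelihood adjusted p = 0.0368). It passed by the same test with crossed replicate numbers, the length correction and the correction for GC content and length, at -0.23, -0.37 and -0.43 (adjusted p = 0.0268, 0.00732 and 0.00525 by edgeR quasi-likelihood). Without JMJD3 1 or JMJD3 2 neither call held, with BUB1B at -0.37 and -0.41 (edgeR quasi-likelihood adjusted p = 0.154 and 0.113) and BUB3 at -0.26 and -0.21 (0.299 and 0.423). With limma on log2(FPKM + 1) both calls were lost at smaller log2 fold changes, -0.23 for BUB1B and -0.09 for BUB3 (limma adjusted p = 0.366 and 0.506). No filter on low counts also ended both calls, and BUB3 missed the threshold under upper quartile scaling, the filter of 10 counts in every library and the replicate block as well.

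At anaphase onset, 1 of 4 genes fell. ESPL1 (separase), the protease that cuts cohesin, was at 115 and 113 CPM in the vector libraries and at 77.5 and 81.5 CPM in the JMJD3 libraries. The groups were well apart, with a log2 fold change of -0.52 ± 0.08 (SE, edgeR quasi-likelihood adjusted p = 0.0046). Without JMJD3 1 that value was -0.49 and just missed the threshold (edgeR quasi-likelihood adjusted p = 0.0616). PTTG1 (securin), the inhibitor that separase is bound to until anaphase, did not follow it. It was at 80.6 and 91.4 CPM against 96.3 and 88 CPM, so the groups overlapped, and the log2 fold change was 0.10 (edgeR quasi-likelihood adjusted p = 0.454). That value was -0.03 without vector 1 and 0.19 without vector 2. With a correction for transcript length PTTG1 was called higher, at 0.23 (edgeR quasi-likelihood adjusted p = 0.0256), and with GC content added to that correction at 0.24 (0.00903). Retrocopies similar to PTTG1 exist, between which estimated counts may divide reads. CDC20, the activator of the APC/C in mitosis, was at 199 and 234 CPM against 192 and 185 CPM. Its groups did not overlap, but the log2 fold change of -0.20 did not pass the edgeR quasi-likelihood test (adjusted p = 0.145). With crossed replicate numbers CDC20 passed, at -0.19 (edgeR quasi-likelihood adjusted p = 0.0377), and with the replicate block it did not (0.281). The value was -0.35 without vector 1 and -0.07 without vector 2.

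In the centromere and kinetochore group, 2 of 6 genes fell and the median log2 fold change was -0.19. CENPF, a very long protein that gathers at kinetochores in G2, was at 226 and 171 CPM in vector cells and at 136 and 151 CPM in JMJD3 cells. The groups did not overlap, and the log2 fold change was -0.47 ± 0.14 (SE, edgeR quasi-likelihood adjusted p = 0.0351). NDC80, which holds the ends of microtubules at the kinetochore, was at 34.4 and 34.2 CPM against 26.8 and 28.5 CPM. Its log2 fold change of -0.31, again without overlap, passed the edgeR quasi-likelihood test at an adjusted p of 0.0444. Its partner NUF2, named after its values were seen, was at 47.2 and 44.9 CPM against 46.7 and 44.5 CPM, and those groups overlapped. Without JMJD3 1 both calls were lost, with CENPF at -0.40 and NDC80 at -0.26 (edgeR quasi-likelihood adjusted p = 0.109 and 0.439), and without JMJD3 2 NDC80 was at -0.35 (0.301). Without vector 1 CENPF was at -0.29 (0.0316). With no filter CENPF and NDC80 were not called (edgeR quasi-likelihood adjusted p = 0.133 and 0.0838). NDC80 was not called with the replicate block (0.143), upper quartile scaling (0.0715) or limma either.

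Of the 6 mitotic kinesins 2 fell, with a median log2 fold change of -0.07. KIF23, the motor of the central spindle that starts the cleavage furrow, was at 93.4 and 81.2 CPM in the vector libraries and at 58.8 and 57.2 CPM in the JMJD3 libraries. It showed no overlap and a log2 fold change of -0.59 ± 0.10 (SE, edgeR quasi-likelihood adjusted p = 0.00591). KIF2C, which removes tubulin from microtubule ends to correct attachments, was at 150 and 162 CPM against 125 and 124 CPM. Its groups did not overlap either, with a log2 fold change of -0.32 (edgeR quasi-likelihood adjusted p = 0.0212). KIF2C did not pass without JMJD3 1 or JMJD3 2, at -0.32 and -0.31 (edgeR quasi-likelihood adjusted p = 0.218 and 0.252), nor with no filter or the replicate block (0.0515 and 0.0725). The other 4 kinesins, KIF4A, KIF11, KIF20A and KIF20B, did not pass in the main fit. KIF4A was called lower with the correction for transcript length (log2 fold change -0.31, edgeR quasi-likelihood adjusted p = 0.00915), with that for GC content and length, and without either vector library. KIF20B was called higher with crossed replicate numbers and without vector 1 (0.54), but without vector 2 it was at -0.01 (edgeR quasi-likelihood adjusted p = 0.869).

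Among the cytokinesis genes, PRC1 fell and the other 3 did not pass the test. PRC1 crosslinks the microtubules of the central spindle and was at 150 and 136 CPM in vector cells and at 104 and 101 CPM in JMJD3 cells. There was no overlap, and the log2 fold change was -0.48 ± 0.09 (SE, edgeR quasi-likelihood adjusted p = 0.00725). Without JMJD3 2 the value was -0.45 (edgeR quasi-likelihood adjusted p = 0.0814). RACGAP1, which forms the centralspindlin complex with KIF23, was at 106 and 100 CPM against 106 and 102 CPM, values that overlapped. It was named after its values were seen. ANLN (anillin), a scaffold of the contractile ring, was at 140 and 102 CPM against 140 and 152 CPM, and its log2 fold change of 0.27 had an edgeR quasi-likelihood adjusted p of 0.182. That value was 0.48 without vector 1 and 0.06 without vector 2, so it rests on 1 library. With crossed replicate numbers ANLN was called higher, at 0.29 (edgeR quasi-likelihood adjusted p = 0.00918), and with the replicate block it was not (0.11).

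The chromosome structure group held the member with the lowest log2 fold change and 1 of the 2 that rose. Of its 7 genes 2 fell and 1 rose, and the median log2 fold change was 0.11. MKI67, which coats mitotic chromosomes and keeps them apart, was at 519 and 377 CPM in vector 1 and vector 2 and at 233 and 266 CPM in JMJD3 1 and JMJD3 2. Both vector libraries were higher, vector 1 most. The level was 44.3% lower (log2 fold change -0.84 ± 0.15 SE, edgeR quasi-likelihood adjusted p = 0.00729). TOP2A, the topoisomerase that untangles sister DNA, was at 352 and 268 CPM and rose to 431 and 468 CPM. Again the groups did not overlap, at a log2 fold change of 0.54 ± 0.13 (SE, edgeR quasi-likelihood adjusted p = 0.0193). TOP2A missed the threshold with limma on log2(FPKM + 1) and log2(FPKM + 0.1), at 0.42 in both (limma adjusted p = 0.059 and 0.0567), and with no filter on low counts, at 0.53 (edgeR quasi-likelihood adjusted p = 0.09). Over its 15 alternatives the adjusted p ran from 5.81e-06 to 0.09. TOP2A and MKI67 are both used as marks of dividing cells, and they moved in opposite directions here. SMC4, a core subunit of condensin, was at 171 and 99.3 CPM against 153 and 166 CPM. The JMJD3 values lay between the vector values, and the log2 fold change was 0.24 with a 95% interval from -0.30 to 0.78 (edgeR quasi-likelihood adjusted p = 0.426). It was 0.65 without vector 1 and -0.10 without vector 2, so its direction rests on 1 library. With crossed replicate numbers SMC4 was called higher, at 0.29 (edgeR quasi-likelihood adjusted p = 0.0308), and with the replicate block it was not (0.106). NCAPH, another condensin subunit, fell by 0.30 on the log2 scale (edgeR quasi-likelihood adjusted p = 0.0254) and was named after its values were seen. Without JMJD3 1 or JMJD3 2 it was at -0.30 in both and did not pass (edgeR quasi-likelihood adjusted p = 0.284 and 0.286), and it also missed with no filter and with the replicate block (0.0564 and 0.102).

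The vector libraries differed from each other with gene length. For the 52 members the log2 difference between vector 1 and vector 2 had a Spearman rho of 0.73 with the length of the longest transcript, and that between JMJD3 1 and JMJD3 2 a rho of -0.64. These are descriptions across genes that share the same libraries, and genes are not independent replicates. Among the members, SMC4, CENPE and KIF20B differed by more than 0.5 between the vector libraries, by 0.78, 0.70 and 0.59, while between the JMJD3 libraries the largest difference was 0.24. Over all tested genes the median difference between the vector libraries ran from -0.18 for transcripts of up to 1000 bases to 0.30 for those over 8000 bases. The median log2 fold change of all tested genes also ran with length, from -0.10 for transcripts of up to 1000 bases to 0.16 for those over 8000 bases. For the 52 members the log2 fold change had a rho of 0.17 with length. With a correction for transcript length, 26 members were lower and 3 higher, beside 25.9% and 22.9% of all genes. MKI67 and TOP2A kept their directions without vector 1, at -0.63 and 0.71, and without vector 2, at -1.05 and 0.35. The part of length or lane in the difference between the vector libraries was not tested.

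**Figure D3:**
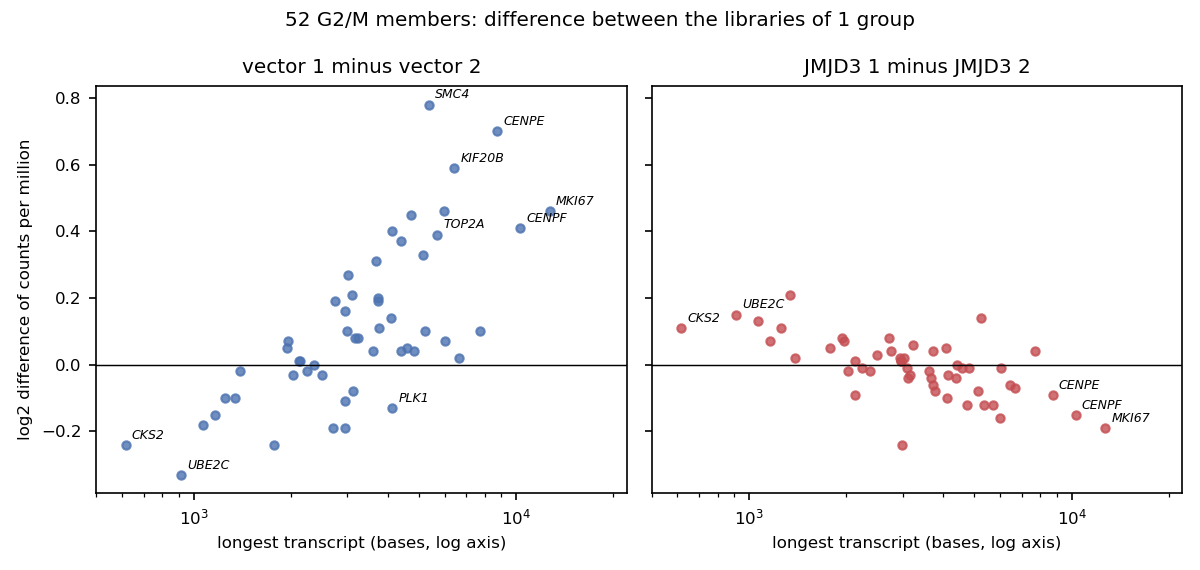
Log2 difference in CPM between the libraries of a group for the 52 members, against the length of the longest transcript on a log axis; the left panel shows vector 1 minus vector 2 and the right panel JMJD3 1 minus JMJD3 2. Long genes such as SMC4, CENPE and KIF20B lie above 0.5 in the left panel, and no member lies beyond 0.24 in the right panel.

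After subtracting the all-gene median gap of -0.03, log2 changes from counts and from FPKM lay more than 0.5 apart for 2 members. For MKI67 the mean FPKM was 63.1 in vector and 24.1 in JMJD3 cells, a log2 ratio of -1.39, where the counts gave -0.84. For CENPF the means were 77.8 and 30.7, a log2 ratio of -1.34 beside -0.47 from counts. Smaller gaps were seen for others, among them GTSE1 (-0.81 on FPKM and -0.41 on counts), HMMR (0.85 and 0.58) and BUB3 (-0.10 and -0.23). A gap of more than 0.5 between these scales was found in 4.5% of all tested genes. No called member had another sign on FPKM than on counts.

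In 6 lists of further G2/M genes, which hold no member, 28 of 96 genes were lower (29.2%) and 11 higher (11.5%), beside 19.1% and 21.6% of all tested genes, with a median log2 fold change of -0.05. FOXM1, the activator of many of the members, was at 207 and 218 CPM in vector and at 131 and 134 CPM in JMJD3 cells. It fell without overlap by 0.68 on the log2 scale (edgeR quasi-likelihood adjusted p = 0.00205). RBL2 (p130), the pocket protein of the DREAM repressor, was at 48.3 and 35.4 CPM against 81.9 and 89.7 CPM and rose by a log2 fold change of 1.04 ± 0.15 (SE, edgeR quasi-likelihood adjusted p = 0.0039). LIN54, the MuvB subunit that contacts CHR letters, was at 14.2 and 10.4 CPM against 21.7 and 21.3 CPM, with a log2 fold change of 0.81 (edgeR quasi-likelihood adjusted p = 0.00865). Neither RBL2 nor LIN54 had overlapping groups. FOXM1, RBL2 and LIN54 passed under each of the 15 alternatives. E2F5, another DREAM subunit, fell by 0.45 but did not pass without JMJD3 1 (-0.52) or JMJD3 2 (-0.38), and of the 13 genes of this regulator list 5 were lower and 3 higher (38.5% and 23.1%).

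Of 17 APC/C genes 9 were lower and 0 higher (52.9% lower, median log2 fold change -0.39). ANAPC2, which forms the catalytic core, fell by 0.65 and ANAPC5, a platform subunit, fell by 0.42 on the log2 scale. Among 10 brakes and switches of mitotic entry 4 were lower and 1 higher (40% and 10%). In that list PKMYT1, a kinase that inhibits CDK1, fell by 0.51 and CDC25A, a phosphatase that activates CDKs, fell by 0.37, while MASTL, which restrains the phosphatase PP2A, rose by 0.50. The 23 other kinetochore genes had 7 lower and 3 higher (30.4% and 13%), with falls of ZWINT and OIP5 (log2 fold changes -0.59 and -0.61) and rises of CENPK and CENPI (0.45 and 0.57). Of 19 other spindle, centrosome and abscission genes 2 were lower, KIF18B and SPAG5 (-0.63 and -0.55), and 3 higher, among them CEP55 and STIL (0.42 and 0.38). Those shares of 10.5% and 15.8% lay below the 19.1% and 21.6% of all tested genes. Condensin II and cohesin genes mostly did not pass, with NCAPH2 lower (-0.64) and SGO1, the protector of centromeric cohesin, higher (0.53) among 14, which is 7.14% each way and again below all genes. Of the genes named in these 5 lists, ANAPC2, ZWINT, KIF18B, SPAG5 and NCAPH2 passed without each library in turn. The others missed the threshold without JMJD3 1, JMJD3 2 or vector 2. With limma, and also with no filter, PKMYT1, MASTL, CENPI, CEP55 and STIL lost their calls. CDC25A lost its call with limma, and STIL with the replicate block (edgeR quasi-likelihood adjusted p = 0.0624). Over the 96 genes of the 6 lists, 29 were higher without vector 1 (28.5% of all tested genes), 6 without JMJD3 1 (13.8% of all) and 2 without JMJD3 2 (12.6% of all). Lower genes numbered 11 without JMJD3 1 and 8 without JMJD3 2, beside 9.29% and 7.43% of all genes, so those shares lie near that of all genes. Correcting for length and GC content gave 45 lower, beside 27.8% of all genes.

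**Figure D4:**
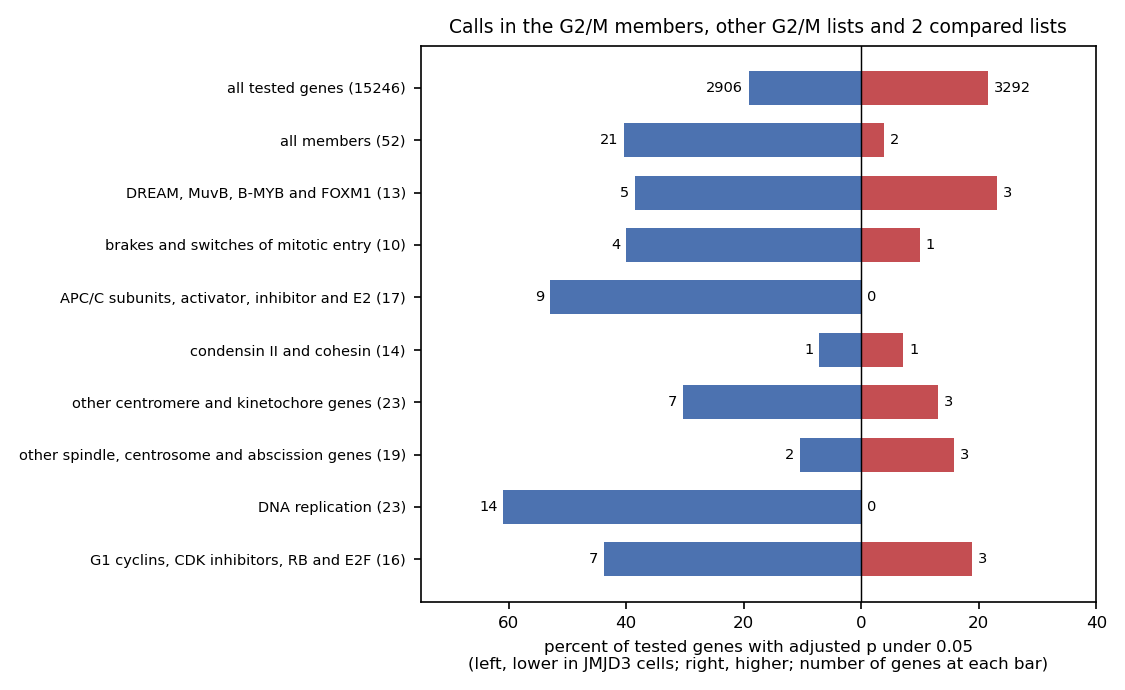
Percent of tested genes called lower (left, blue) or higher (right, red) in JMJD3 cells, for all tested genes, the 52 members, 6 lists of further G2/M genes and 2 compared lists, with the number of genes at each bar. The members show 21 lower and 2 higher, the APC/C list 9 and 0, and DNA replication 14 and 0.

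Genes of other cell cycle phases were set beside the members, with no test of the difference. Of 23 DNA replication genes 14 were lower (60.9%) and 0 higher, beside 19.1% and 21.6% of all tested genes, at a median log2 fold change of -0.32, and the lowest p were those of MCM7, a subunit of the replicative helicase, at -0.73, and POLE, a replicative polymerase, at -0.72. Of 16 tested genes among 19 for G1 cyclins, CDK inhibitors, RB and E2F, 7 were lower and 3 higher (43.8% and 18.8%). Leaving out JMJD3 1 or JMJD3 2 left 7 and 4 replication genes lower, and 3 and 1 of the G1 list, beside 9.29% and 7.43% of all genes. Without vector 1 the median log2 fold change was -0.40 for the replication genes and -0.27 for the G1 list. The main fit gave -0.32 and -0.18. Over all tested genes the median without vector 1 was 0.02. CCND2 was at 159 and 193 CPM against 68.5 and 60 CPM, and CCND1 at 37.6 and 33.4 CPM against 53.8 and 56.1 CPM. CCND3, the most abundant D-type cyclin and named after its values were seen, was at 273 and 309 CPM against 277 and 278 CPM with overlapping groups, and did not pass in the main fit. Without vector 1 its log2 fold change was -0.20 (edgeR quasi-likelihood adjusted p = 0.032). RB1, which restrains E2F, was at 69.6 and 46 CPM against 102 and 109 CPM. CCND2, CCND1 and RB1 had no overlap between groups, and the log2 fold changes were -1.45 for CCND2, 0.63 for CCND1 and 0.87 for RB1, while E2F2 was at -0.47, a call lost without JMJD3 1 (-0.44) and without JMJD3 2 (-0.51). CCND1 missed the threshold with limma on log2(FPKM + 1) and log2(FPKM + 0.1) (limma adjusted p = 0.0751 and 0.069), and RB1 with no filter on low counts (edgeR quasi-likelihood adjusted p = 0.0684).

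Markers of cell types moved between the groups too. Promyelocyte markers summed to 17128 and 17916 CPM in the vector libraries and to 11273 and 11212 CPM in the JMJD3 libraries, with MPO at 13876, 14110, 9379 and 9421 CPM. MPO and the granule protease PRTN3, at 2096 and 2535 CPM against 685 and 636 CPM, carried most of that sum. CTSG at 145 and 164 CPM against 11 and 9.61 CPM, AZU1 at 394 and 496 CPM against 315 and 290 CPM and SPI1 at 217 and 254 CPM against 205 and 182 CPM were lower in both JMJD3 libraries too. Other genes of the list were higher in both JMJD3 libraries, with MYB at 263 and 201 CPM against 458 and 468 CPM, CEBPE at 71.2 and 87.8 CPM against 136 and 126 CPM and CD33 at 65.1 and 68.7 CPM against 83.5 and 79.7 CPM. Of the T cell list 1 of 5 genes, CD2, was above 1 CPM, and its sum was 3.75, 5.27, 11.1 and 11.1 CPM in the same order with CD5 at 0. B cell markers had 3 of 5 genes above 1 CPM, led by CD79B, and summed to 25.9, 30.8, 36.6 and 32.8 CPM with MS4A1 at 0. Erythroid markers were at 0 for 5 of 6 genes, with KLF1 the sixth, and the list summed to at most 0.108 CPM. Among megakaryocyte markers PF4 and GP9 were at 0 and ITGA2B reached 1.76 CPM, within sums of 0.621, 0.707, 1.78 and 1.67 CPM. Of 7 stromal and epithelial markers COL1A2, COL3A1, CDH1 and KRT5 were at 0, and EPCAM led sums of 4.61, 5.48, 1.3 and 1.27 CPM. With the defining markers of other lineages at or near 0, the part of these changes in the members' values was not tested.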

How the data were processed

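RNA of 4 NB4 libraries was analysed from a table with estimated counts and FPKM per gene, both deposited by the authors. The submitters' processing notes name CASAVA 1.8, TopHat2 2.0.4, RSEM, edgeR and GRCh38, the series text BWA and Cufflinks, and the methods STAR, hg19 and HTSeq, so which made the deposited estimated counts and FPKM is not settled. Of nonzero counts 98.4% were not whole (tolerance 1e-06), and all were rounded. Columns of the authors' own fold changes, p-values and FDR were not used.

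After filterByExpr and TMM scaling, edgeR 4.0.16 in R 4.3.3 (glmQLFit, glmQLFTest) tested each gene in 1 fit of all 4 libraries without covariates, with Benjamini-Hochberg adjustment over 15246 genes. CPM uses TMM-scaled library sizes. The SE is the size of the log2 fold change divided by the square root of F. The 3 counts that a 0 allows equal 0.0786 to 0.081 CPM, for counting error only. Transcript lengths came from GENCODE release 44 by gene identifier. Alternatives used DESeq2 1.42.0, limma 3.58.1 on log2 FPKM (0.1 or 1 added), other scalings and filters, a replicate block and each library left out; corrections for length and GC content and a crossed block were added after the data were seen. Named members were the 2 with the smallest adjusted p and the 1 with the highest FPKM in each role, those changed by 1.5-fold, and those called against the majority. In other lists up to 2 genes a direction were named. Members and lists were chosen with earlier results of these data known. SGO1 was listed as SGOL1.

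The library kit does not mark strand, so reads of overlapping antisense genes cannot be told apart, and genes with near-identical copies such as CKS1B are uncertain.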

Additional observations from a re-analysis of the deposited data

How the results depend on the processing

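The members' median log2 fold change lay between -0.26 and -0.19 under all 15 alternatives, and the count of members changed by 1.5-fold stayed within 4 to 9. Same-numbered libraries did not deviate together (correlation across genes -0.146). That value cannot show whether the numbers pair the libraries, because the differences within the groups ran with transcript length in opposite directions. With a replicate block 14 members were lower and 2 higher, beside 15.8% and 21.4% of all genes. Crossed numbers, added after the data were seen, gave 27 and 5, beside 24.7% and 28.4% of all genes. With no filter on low counts, where 27095 genes share the adjustment, 12 members were lower and 1 higher (6.55% and 6.99% of all genes), and 15 further G2/M genes were lower and 4 higher. limma on log2(FPKM + 1) and log2(FPKM + 0.1) each left 1 member higher, and 4 and 5 further genes higher. Of all genes 13.4% and 13.3% were higher in these fits, where the main fit had 21.6%. The cause of the lower counts was not tested. Crossed numbers gave 22 of the 96 further genes higher, beside 28.4% of all genes. The correction for GC content and length, also added, gave 45 lower, beside 27.8% of all genes. At 2-fold, 0 members were lower and 0 higher in the main fit, while MKI67 (-1.35 and -1.38) and CENPF (-1.32 and -1.34) passed with limma, and MKI67 without vector 2 (-1.05). Leaving out each library gave 8 to 27 members lower and 2 to 7 higher, beside 7.43% to 27.4% and 12.6% to 28.5% of all genes, and 8 to 39 further genes lower and 2 to 29 higher; a lone library is then assumed to vary like the other group. The log2 fold change of PTTG1 lay between -0.03 and 0.19 and that of SMC4 between -0.10 and 0.65 in these fits. Of 840 values for 56 single genes under the alternatives, 718 kept their direction and side of the threshold, 99 lost it, 21 gained it and 2 reversed. Every member had at least 421 counts in each library (fewest in CDC25C), and the libraries of a group differed by more than counting error (chi-square per gene 26.4 for vector, 5.15 for JMJD3).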
